A study of Homo sapiens with 22 samples.

Results

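In HFFc6 fibroblasts, 10251 regions of open chromatin were also open in H1 embryonic stem cells and carried no called CTCF region in either of 2 CTCF lists. They were selected on measured peak calls. A member is an HFFc6 ATAC region on chromosomes 1 to 22 or X that shares at least 1 bp with an H1 ATAC region and no base with the HFFc6 CTCF list or with a CTCF list named for human embryonic stem cells (hESC). The members were 6.58% of the 155746 HFFc6 ATAC regions (95% Wilson interval 6.46 to 6.71) and 19.0% of the 54067 that were open in both lines (18.6 to 19.3). No test applies to these shares, since the overlaps themselves chose the members, and here and below the intervals cover counting error only.

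The series mapped open chromatin, CTCF, the cohesin subunit SMC1 and 2 histone marks in 22 libraries. HFFc6 is a single subclone, c6, of human foreskin fibroblasts immortalised with hTERT, and it gave 8 ATAC-seq libraries and 2 CTCF libraries made by CUT&Tag, in which an antibody directs the transposase Tn5 to the bound protein. The titles of these CTCF libraries say HFF1 while their other labels say HFFc6, and every statement on CTCF in HFFc6 follows the other labels. H1, a line of pluripotent cells from a human embryo, gave 2 ATAC-seq libraries, in which Tn5 cuts accessible DNA directly. The labels name no treatment, genotype change or time for either line, and the 10 libraries of SMC1 and of the histone marks H3K27ac and H3K4me3 enter no result. Each group enters as 1 list of called regions for all its libraries, so there is no spread between replicates, the read depth behind a value is unknown, and no test between the lines is possible. The hESC-named CTCF list is tied to no labelled library, and which cells and assay it came from was not established here. The line labels were checked on marker genes: of 9 stem cell markers, 8 had an open region within 1 kb of either gene end in H1 and 2 did in HFFc6, with POU5F1 listed open in neither. Of 9 fibroblast markers 8 did in each line, and THY1 was listed open in neither.

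CTCF is a zinc finger protein that binds DNA and halts cohesin, the ring complex that extrudes chromatin loops, so its sites often lie at loop anchors and domain borders. Many of its sites are open and occupied in most cell types. Open regions that lack CTCF are usually promoters, where transcription starts, or enhancers, which other factors hold open and which tend to differ from one cell type to the next. A region that is open in fibroblasts and in stem cells but holds no called CTCF is therefore open in unrelated cells at a place where these lists record no CTCF.

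A set of 6 promoters whose start lies under a strong member gives examples of such sequences. They were chosen after their values were seen, except ZNF501, the highest ranked gene of its fixed list, and each 250-base stretch before the gene start lies wholly inside the member. Capitals mark matches, on either strand, to 15 short motifs that are spelled out further down. The sequences are RefSeq's for GRCh38.p14, written 5′ to 3′ on the gene's own strand.
ZNF501: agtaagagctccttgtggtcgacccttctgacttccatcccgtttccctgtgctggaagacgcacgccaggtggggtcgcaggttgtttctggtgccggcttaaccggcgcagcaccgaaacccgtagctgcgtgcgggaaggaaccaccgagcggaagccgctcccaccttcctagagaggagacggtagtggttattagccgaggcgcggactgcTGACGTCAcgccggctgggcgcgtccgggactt
ADGRL4: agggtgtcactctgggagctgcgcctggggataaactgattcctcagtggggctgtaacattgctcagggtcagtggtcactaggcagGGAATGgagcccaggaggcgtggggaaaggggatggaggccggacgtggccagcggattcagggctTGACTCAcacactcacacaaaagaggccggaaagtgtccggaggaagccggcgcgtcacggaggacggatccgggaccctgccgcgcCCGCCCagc
MC4R: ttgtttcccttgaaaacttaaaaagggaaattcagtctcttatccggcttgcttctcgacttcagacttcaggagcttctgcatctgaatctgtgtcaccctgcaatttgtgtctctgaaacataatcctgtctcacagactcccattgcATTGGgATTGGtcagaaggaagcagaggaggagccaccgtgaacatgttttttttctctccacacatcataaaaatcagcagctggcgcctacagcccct
EPHA7: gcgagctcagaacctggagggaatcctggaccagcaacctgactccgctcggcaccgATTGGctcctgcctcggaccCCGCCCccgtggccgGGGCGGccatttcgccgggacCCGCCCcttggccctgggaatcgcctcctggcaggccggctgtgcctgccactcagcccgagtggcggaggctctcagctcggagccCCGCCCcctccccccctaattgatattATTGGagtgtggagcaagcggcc
MAPK10: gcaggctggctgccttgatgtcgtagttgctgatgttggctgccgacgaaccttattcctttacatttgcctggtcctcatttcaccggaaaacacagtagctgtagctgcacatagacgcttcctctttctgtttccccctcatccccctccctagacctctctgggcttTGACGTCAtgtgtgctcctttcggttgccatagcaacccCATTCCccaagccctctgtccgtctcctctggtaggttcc
FGL2: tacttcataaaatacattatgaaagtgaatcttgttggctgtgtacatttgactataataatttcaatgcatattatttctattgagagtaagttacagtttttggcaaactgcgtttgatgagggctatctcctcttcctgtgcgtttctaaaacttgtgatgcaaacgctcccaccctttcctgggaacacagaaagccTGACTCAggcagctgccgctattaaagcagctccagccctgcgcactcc
The capitals in ZNF501 and in the left match of MAPK10 are the CRE letters TGACGTCA. In ADGRL4 they are TEAD, AP-1 and SP/KLF letters from left to right, in FGL2 the AP-1 letters TGACTCA, in MC4R a pair of reversed CCAAT boxes, and in EPHA7 CCAAT boxes and SP/KLF boxes. The right match of MAPK10 is a reversed TEAD motif. None of the 6 stretches holds the CTCF core letters searched, which says only that these letters are not in these windows. Of all 408 starts inside a member, 11.3% had these letters in a slightly longer window.

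ZNF501, a zinc finger gene, had its start at chr3:44729635 under the member chr3:44729168-44730032, which was 865 bp wide. Its fold enrichment, the peak caller's ratio of reads at the summit to local background, was 17.6 in HFFc6 and 15.3 in H1. The same member covers the start of the lncRNA LOC105377056, which runs the other way. The member was stronger than 97.2% of the HFFc6 list and 92.5% of the H1 list, and the nearest HFFc6 CTCF region was 16.2 kb off.

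ADGRL4, an adhesion G protein coupled receptor of blood vessel cells, had a fold enrichment of 14.8 in HFFc6 and 16.7 in H1 at chr1:79006055-79007202, and its nearest CTCF region in HFFc6 was 121 kb off. MC4R, the melanocortin receptor that curbs appetite in the hypothalamus, had 14.4 in HFFc6 and 15.5 in H1 at chr18:60372127-60373296. EPHA7, an ephrin receptor of axon guidance, had 17.1 in HFFc6 and 12.4 in H1 at chr6:93419064-93420213. These genes are best known from endothelial or nerve cells, and their starts were nonetheless listed open in both lines. MAPK10, the neuronal JNK kinase, had 13.0 in HFFc6 and 21.7 in H1 at chr4:86359759-86360526, so that it ranked higher in H1. FGL2, a fibrinogen-like protein of immune cells, had 11.8 in HFFc6 and 10.6 in H1 at chr7:77199306-77200247. EPHA7 is the one of the 6 with CTCF close by, 3.54 kb off in the HFFc6 list and 0.55 kb off in the hESC-named list.

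In all, 9 annotated miRNA genes overlapped a member. MIR137 and MIR6512 are shown, chosen as the best known and the strongest in HFFc6, with their mature forms from RefSeq (GRCh38.p14), with the seed, bases 2 to 8, in capitals.
hsa-miR-137-3p: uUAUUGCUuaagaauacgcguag
hsa-miR-137-5p: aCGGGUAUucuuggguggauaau
hsa-miR-6512-3p: uUCCAGCCcuucuaaugguagg
hsa-miR-6512-5p: uACCAUUAgaagagcuggaaga
MIR137, a miRNA gene of neural development, lies wholly under the member chr1:98045501-98046299, with a fold enrichment of 3.01 in HFFc6 and 5.16 in H1. MIR6512 had the strongest HFFc6 member of the 9, with 15.5 in HFFc6 and 6.30 in H1 at chr2:177313731-177314891. The 4 seeds are all different. By comparison 126 of the 1911 miRNA genes overlapped a shared region with CTCF in both lists. Of the 237 miRNA genes under any HFFc6 region, a member overlapped 9, or 3.797%. This is below the 6.58% that members make up of all HFFc6 regions.

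Sharing between the lines went with CTCF, counted on the same overlaps that define the members. Regions with CTCF also tended to be stronger, and sharing at equal strength was not computed. Among HFFc6-only regions the median HFFc6 fold enrichment was 9.43 with CTCF and 4.21 without. Of the 79737 HFFc6 regions without CTCF in either list, 12.9% were also open in H1 (12.6 to 13.1). Of the 76009 with CTCF in at least one list the share was 57.6%, and of the 35016 with CTCF in both lists it was 88.4%. Among the regions open in both lines, 10251 were members, 6778 held HFFc6-list CTCF but none of the hESC-named list, 6077 the reverse, and 30961 held both. Viewed from H1, 12359 of 60442 shared H1 regions, 20.4%, held no CTCF.

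The members were weak among the shared regions, as were, in 1 line each, the regions with CTCF in a single list; this describes the same peak calls that chose them. Their median HFFc6 fold enrichment was 4.34 (quartiles 2.91 and 7.16), against 9.50 for shared regions with CTCF in both lists and 4.21 for HFFc6 regions that were neither shared nor CTCF-bearing. In H1 their partners had a median of 5.01, against 11.0 for regions with CTCF in both lists. The whole ATAC lists had medians of 6.08 in HFFc6 and 5.78 in H1. Members were 644 bp wide in the median, against 1000 bp for regions with CTCF in both lists. Shared regions with CTCF in the hESC-named list alone were as weak and narrow in HFFc6, with medians of 4.36 and 618 bp, but had 8.90 in H1. Those with CTCF in the HFFc6 list alone had 10.4 in HFFc6 and, close to the members, 5.15 in H1. A −log10 q of at least 10, a strict significance level, was reached by 75.6% of members in HFFc6, but by 32.8% of their partners in H1. For regions with CTCF in both lists the shares were 97.9% in HFFc6 and 91.8% in H1. Over the whole ATAC lists they were 85.2% in HFFc6 and 48.4% in H1, so the H1 list was lower as a whole. Only 22 members (0.215%) stood above the 90th percentile of both ATAC lists, against 3052 (9.86%) of the regions with CTCF in both.

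The share without CTCF fell steadily as the shared regions grew stronger or wider. In 5 equal groups by HFFc6 fold enrichment, members made up 43.3% of the weakest group, then 23.4%, 14.7%, 8.51% and 4.94% of the strongest. By H1 fold enrichment they made up 46.3%, 27.6%, 12.6%, 5.60% and 2.76%, and by width 33.3%, 25.7%, 17.7%, 11.8% and 6.37%. A wider region has more bases on which to meet a CTCF region, so width and absence of CTCF are not independent by construction.

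**Figure D1:**
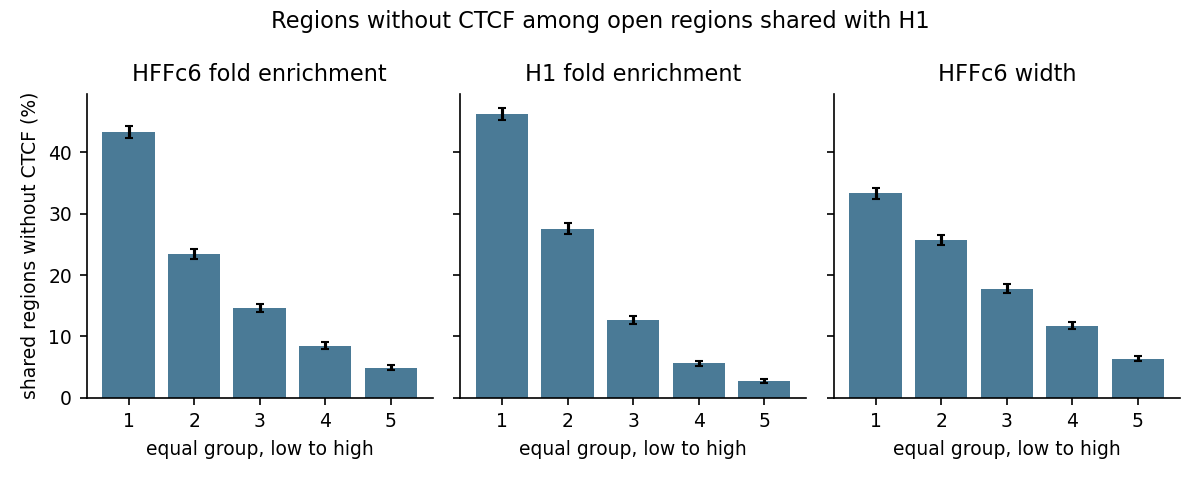
Share of regions open in both HFFc6 and H1 that hold no CTCF (percent, vertical axis), in 5 equal groups from low to high by HFFc6 fold enrichment, H1 fold enrichment and HFFc6 width (bp); bars start at 0 and the error bars are 95% Wilson intervals. The share falls in every panel, from 43.3% to 4.94%, from 46.3% to 2.76% and from 33.3% to 6.37%.

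The open sites of the lines also met less exactly in members than in shared regions with CTCF in both lists. Strength, which was lower in members, was not held equal in these comparisons. The summits, the points of highest signal, lay a median of 124 bp apart in members, against 43 bp in shared regions with CTCF in both lists. They lay within 100 bp of each other in 45.7% of members, against 74.6%. The H1 summit fell inside the HFFc6 region in 84.1% of members, against 98%. It did so in 93.0% of regions with CTCF in the HFFc6 list alone and 87.9% with the hESC-named list alone. Where only the HFFc6 list held CTCF the median summit distance was 130 bp, close to that of the members. Where only the hESC-named list did it was 71 bp. Across members the fold enrichments of the lines had a Spearman rho of 0.103, against 0.391 across regions with CTCF in both lists. The rho was also low with CTCF in the HFFc6 list alone, at 0.161, and in the hESC-named list alone, at 0.179. Regions share libraries and are not independent, so no p is given.

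**Figure D2:**
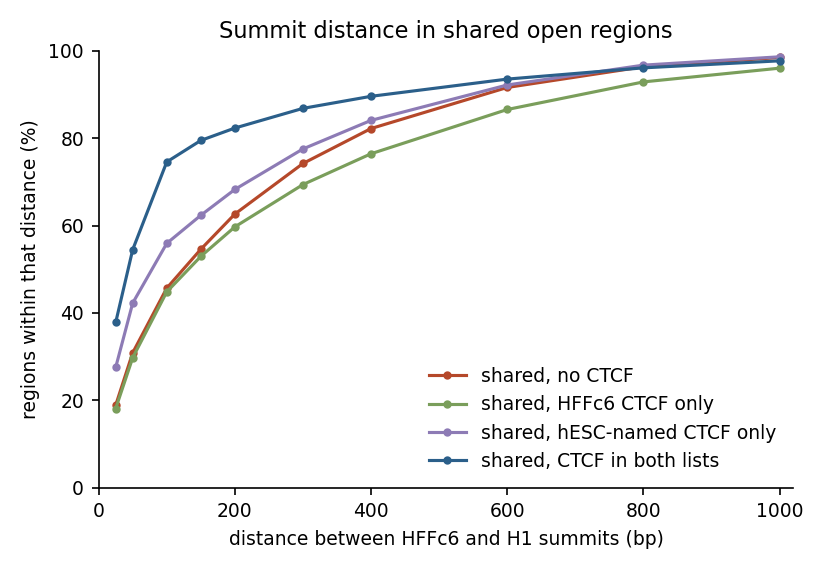
Cumulative share of shared open regions (percent, vertical axis) whose HFFc6 and H1 ATAC summits lie within the distance on the horizontal axis (bp), 1 line per CTCF class. At 100 bp the line of the regions without CTCF stands at 45.7% and that of the regions with CTCF in both lists at 74.6%.

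Some members lay just inside the rule. The H1 overlap was 1 to 10 bp in 114 members and 1 to 50 bp in 463, and the smallest was 1 bp. Just outside, 71 CTCF-free HFFc6 regions had an H1 region within 10 bp without touching it, and 284 within 50 bp. On the CTCF side, 180 members had a CTCF region within 100 bp and 1063 (10.4%) within 1000 bp, while 41 shared regions were left out for a CTCF overlap of 1 to 10 bp. Of the 10711 H1 regions under members, 244 (2.28%) themselves touched a CTCF region beyond the HFFc6 region's edge. From members the nearest CTCF region of either list was a median of 7.16 kb away (quartiles 2.79 and 15.6 kb), against 6.32 kb for HFFc6 regions that were neither shared nor CTCF-bearing.

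Most members lay away from gene starts. Of the 9665 members off chromosome 8, whose gene starts were not in the promoter table used, 615 (6.36%, interval 5.89 to 6.87) lay within 1 kb of the start of a protein-coding or lncRNA gene. The share over all HFFc6 regions was 9.67%, so members fell below it in this main setting. It was 31.7% for shared regions with CTCF in both lists, 18.0% for those with CTCF in the HFFc6 list alone, 11.5% for those with CTCF in the hESC-named list alone, and 2.16% for HFFc6-only regions without CTCF. A further 58.2% of members lay elsewhere in a gene and 35.4% between genes, against 43.0% and 25.2% of the regions with CTCF in both. The nearest protein-coding start was a median of 83.0 kb from a member, against 21.6 kb. The share at starts rose to 15.3%, against 32.2%, when all 4 lists were held to a −log10 q of at least 10, and to 9.95%, against 34.0%, when only the ATAC regions were, a setting chosen after seeing the data. It was 11.0% with the hESC-named CTCF list alone, and 11.0%, against 40.2%, when either end of a gene counted, also chosen after seeing the data. Members stayed below the regions with CTCF in both lists in each setting where both shares were computed. The share over all HFFc6 regions was computed in the main setting only. Whether members stay below it elsewhere is therefore not known, and the 15.3%, 9.95% and 11.0% all exceed 9.67%.

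**Figure D3:**
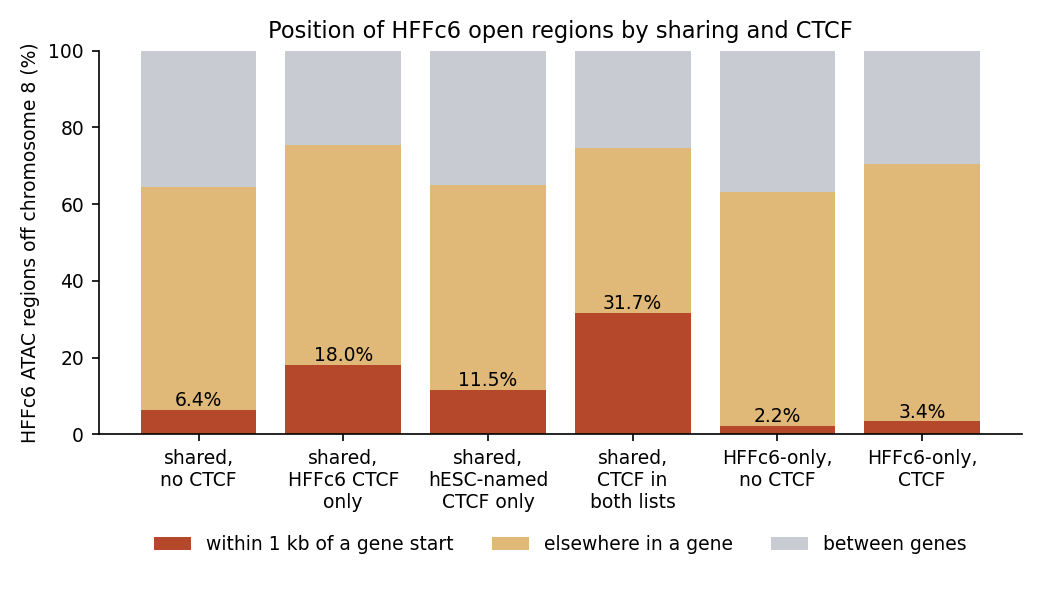
Position of HFFc6 ATAC regions off chromosome 8 (percent of each class, vertical axis), stacked as within 1 kb of a gene start, elsewhere in a gene, and between genes; each bar is 1 class by sharing with H1 and by CTCF. The lowest layer is 6.36% for shared regions without CTCF, on the left, and 31.7% for those with CTCF in both lists.

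The classes stood further apart at gene starts as HFFc6 strength or width grew. In the same 5 groups by HFFc6 fold enrichment, 7.13% of the weakest and 3.98% of the strongest members lay at a start. Among regions with CTCF in both lists, 10.5% of the weakest and 53.8% of the strongest did. By H1 fold enrichment the members ran the other way, with 5.53% of the weakest and 7.97% of the strongest at a start, against 21.2% and 34.4%. By width the classes began level, at 4.82% of members against 4.74% in the narrowest group. In the widest group they stood at 9.97% of members against 62.5%. In every group by strength or width, under 10% of members lay at a start.

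Few genes had their start in such a region. A member lay within 1 kb of 369 of 15812 protein-coding starts, 2.33%, and of 288 lncRNA starts. A shared region with CTCF in both lists lay at 9260 protein-coding starts, 58.6%. At 43 of the 369 starts a second HFFc6 region with CTCF also lay within 1 kb.

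The genes of basic cell upkeep were nearly absent. In 13 lists of cell machinery (ribosome, proteasome, translation, respiratory chain, RNA polymerases, Mediator, spliceosome, chaperones, replication, vesicle transport and ubiquitin conjugation), a member lay at 1 of 559 starts, 0.179%, and a shared region with CTCF in both lists at 509, 91.1%. The exception was DNAJC5, a chaperone of synaptic vesicles, whose member began 898 bp from the start and had a fold enrichment of 3.36 in HFFc6 and 2.65 in H1. None of the 68 starts of cytosolic ribosomal protein genes had a member, against 63 with a region holding CTCF in both lists. None of the 12 pluripotency genes and none of the 13 fibroblast matrix and surface genes with a listed start had one either. COL3A1, a fibrillar collagen gene of fibroblasts whose start is not in the table, did have a member within 1 kb of a gene end. In these short lists a count of 0 leaves room for sizable shares, up to 24.2% of 12 genes by the Wilson interval. A called CTCF region at a start is a peak call, and whether CTCF was bound there was not tested. Such calls were more frequent at stronger open regions. By HFFc6 fold enrichment, 25.8% of the weakest group of shared regions held CTCF in both lists, against 73.4% of the strongest.

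Zinc finger and olfactory receptor genes contributed a few. Of 430 ZNF genes, many of which encode DNA-binding repressors, 4 had a member at the start (0.930%) and 344 a region with CTCF in both lists (80.0%). They were ZNF501, ZNF581, ZNF875 and ZNF367, of which ZNF501 was by far the strongest. ZNF367 had a fold enrichment of 1.55 in HFFc6 and 4.10 in H1. Of 314 olfactory receptor genes, which are expressed in the nose, 270 had no open region at the start in either line, and 1, OR56B1, had a member, 79 bp from its start, with 6.91 in HFFc6 and 4.10 in H1. Of 23 lists, 20 had no member.

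**Figure D4:**
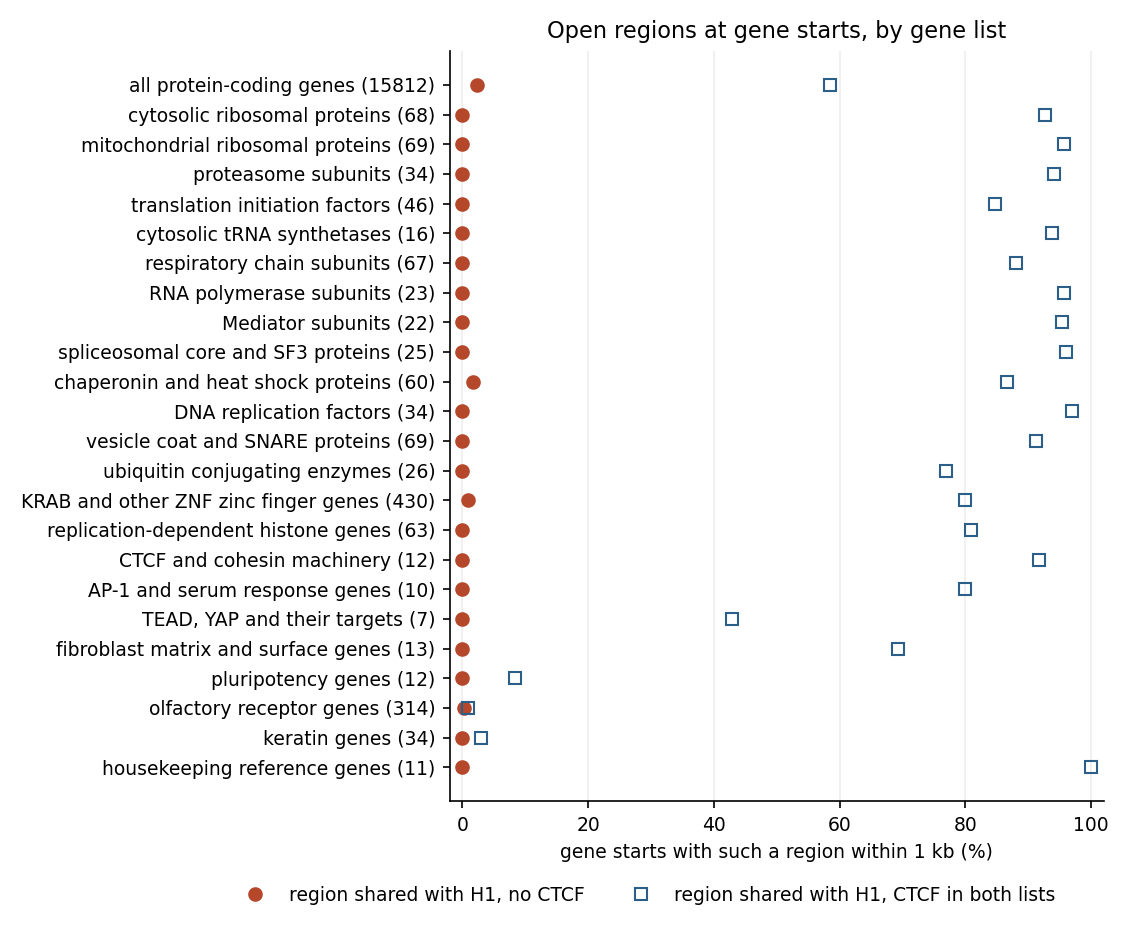
Share of protein-coding gene starts (percent, horizontal axis) that have within 1 kb a region shared with H1 without CTCF (filled circles) or one with CTCF in both lists (open squares), for all genes and 23 gene lists with the number of starts in brackets. The circles sit at 0 for most lists, against 2.33% for all genes, while the squares of the machinery lists lie at 76.9% or more.

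A further 9 lists were drawn up after seeing which genes carried a member, so a high share in them was partly fixed by the choice and is given as a description. Of 71 potassium channel starts 7 had a member (9.86%), of 26 sodium and calcium channel starts 3, and of 20 ephrin and ephrin receptor starts 2. Of 32 glutamate and GABA receptor starts 1 had a member (3.13%), of 19 adhesion receptor starts 1, of 69 interleukin and interleukin receptor starts 3 (4.35%) and of 192 TMEM gene starts 8 (4.17%). KCNC2, a voltage-gated potassium channel of fast-firing neurons, had a fold enrichment of 3.10 in HFFc6 and 17.2 in H1. KCNK3, a background potassium channel, had 3.11 in HFFc6 and 5.22 in H1. CACNA1E, a voltage-gated calcium channel, had 4.04 in HFFc6 and 5.29 in H1, with its member 414 bp from the start. EPHB2, a receptor of axon guidance, had 3.05 in HFFc6 and 4.69 in H1. These 4 were weak in HFFc6, and KCNC2 alone was strong in H1. Of 302 solute carrier starts, 7 had a member (2.32%), near the 2.33% of all genes, and of 12 cadherins none did.

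The promoters under members were mixed in base composition. Over the 300-base windows from 250 bases before to 50 after the start, the median GC content was 59.0% for the 408 starts that lay inside a member, against 65.7% for the 11120 inside a region with CTCF in both lists and 58.3% for all 27195. The ratio of observed to expected CpG, high in CpG islands, had a median of 0.563, against 0.848, and of 0.581 for all promoters. For protein-coding genes the GC content was 65.8%, against 65.7%, and yet a CpG ratio of at least 0.6 was found in 62.9%, against 90.3%. For lncRNA genes it was 53.2%, against 65.7%.

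Motifs were searched as plain letters on both strands of these windows, and a match is not a binding site. Shares are given for members, then for regions with CTCF in both lists, then for all promoters. The ETS motif CCGGAAGT, common in housekeeping promoters, was found in 3 of 408 (0.735%), in 9.32% and in 4.45%. Among protein-coding genes it was in 1 of 240, against 879 of 8789, although the median GC content of these sets was alike. The SP/KLF box GGGCGG was in 47.8%, 72.6% and 44.7%, and the CCAAT box of NFY in 27.5%, 37.2% and 35.7%. The letters GCATGCGC of NRF1 were in 1.96%, 5.89% and 3.28%, and AAGATGGCG of YY1 in 0.980%, 3.93% and 1.86%. The motif TGANTCA of AP-1, a factor of growth and stress responses, ran the other way, at 12.3%, 4.06% and 7.73%, and stood at 20.9% for HFFc6-only regions without CTCF. GGAATG of TEAD was in 17.4%, 10.6% and 14%. The core AGGNGGCNC of the CTCF motif was in 11.3%, 14.7% and 10.7%.

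These sets differ in their mix of genes, since 168 of the 408 starts inside a member were lncRNA starts, against 2331 of 11120, and in GC content. Among protein-coding genes alone the AP-1 motif was in 7.92% (interval 5.13 to 12), 3.72% and 5.76%, and the CTCF core in 14.6%, 14.5% and 13.0%. Protein-coding starts with no region of either line held the AP-1 motif in 10.1%. For the CTCF core the gap between members and regions with CTCF in both lists was thus gone among protein-coding genes. It was not gone among lncRNA genes, where the core was in 6.55% (interval 3.70 to 11.3) against 15.4%. Among protein-coding promoters of over 65% GC the AP-1 motif was in 3.2%, 2.70% and 2.55%, and the TEAD motif turned round, at 4.8%, 7.69% and 7.60%. At lower GC the AP-1 gap to regions with CTCF in both lists was wider, on few members' promoters. AP-1 was in 6.25%, 4.40% and 5.57% between 55% and 65% GC. It was in 15.8%, 5.97% and 9.44% between 45% and 55%, and in 20.7%, 7.02% and 12.6% under 45%. TEAD was in 22.9%, 11.9% and 13.1%, then 21.1%, 16.5% and 17.1%, and under 45% GC in 13.8%, 13.5% and 15.6%. Under 45% GC the TEAD share of members was thus near that with CTCF in both lists and below that of all promoters. The ETS motif was in none of the 125 members' promoters of over 65% GC, against 7.91% and 6.39%, and in none of 48 between 55% and 65% GC, against 12.9% and 8.67%. Between 45% and 55% GC it was in 2.63% of 38, against 11.9% and 5.08%. Under 45% GC it was in none of 29, against 3.51% and 0.437%.

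The remaining motifs are given for the same sets in the same order. CACGTG, the E-box, was in 5.39%, 10.1% and 7.45%. TATAAA was in 8.09%, 4.77% and 12%, and TGACGTCA, the CRE, in 2.94%, 3.48% and 1.98%. TTCCCGCC of E2F was in 4.90%, 5.30% and 3.19%, and ACTACAA of ZNF143 in 1.72%, 3.77% and 2.94%. ATGCAAAT of POU factors was in 0.980%, 1.29% and 1.80%, and GTTGCCATG of RFX in 1.23%, 0.737% and 0.805%. No motif searched contains another, though neighbouring matches can share bases, and a window was counted once however many matches it held.

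The 10 members of highest HFFc6 fold enrichment lay between 8.40 and 1585 kb from the nearest end of a protein-coding gene. The highest HFFc6 fold enrichment, 42.0, belonged to chr13:109424132-109424376, which was 245 bp wide and 216 kb from MYO16; its H1 partner was weak, at 2.98. Next came chr9:61853784-61854803 over the lncRNA FAM27C, with 28.4 in HFFc6 and 42.4 in H1. A pair of members over transcribed pseudogenes followed, chr15:30470820-30471648 at WHAMMP4, with 24.8 in HFFc6 and 7.82 in H1, and chr15:22494392-22494969 at HERC2P2, with 24.8 in HFFc6 and 13.0 in H1. Both pseudogenes have near-identical relatives elsewhere, so reads there may be hard to place. Whether reads are hard to place at the other members named here and below was not examined. The member chr18:29147846-29148529 had 22.4 in HFFc6 and 22.3 in H1, with the summits on the same base, 971 kb from CDH2, the neural cadherin. The remaining 5 of the top 10 ran between 20.8 and 21.5 in HFFc6.

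The highest H1 fold enrichment, 51.5, was at SNORD3A, a small nucleolar RNA gene needed to process ribosomal RNA, under chr17:19187665-19188783, which had 21.5 in HFFc6. At the start of GTF2IRD2, a transcription factor gene with close copies, the member had 2.53 in HFFc6 and 27.9 in H1, and an HFFc6 CTCF region lay 0.094 kb away. Inside CDH18, a cadherin of the nervous system, a member had 14.4 in HFFc6 and 26.8 in H1. Inside AGBL4, an enzyme gene acting on tubulin, a member had 4.05 in HFFc6 and 26.5 in H1. Several members were thus strong in H1 and weak in HFFc6. The widest member, chr11:112523493-112527363 at LINC02763, spanned 3871 bp with 5.0 in HFFc6 and 11.2 in H1. The next, 3778 bp wide, lay in NUDT6 beside FGF2, a fibroblast growth factor gene, and others lay in THBS2, DHRS3 and DDX3X. The member farthest from any CTCF region, chr21:10325628-10326242, was 1078 kb away from one and 195 kb from TPTE.

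Members took part of the small RNA genes that lay under open chromatin. A member covered 10 of 443 tRNA genes, against 261 with a region holding CTCF in both lists. The strongest of the 10 was at TRI-AAT1-1, an isoleucine tRNA gene, with 15.1 in HFFc6 and 9.31 in H1. Members covered 2 of 154 snRNA genes and 5 of 1196 snoRNA genes, against 42 and 33. Of the genes under any HFFc6 region, members met 3.13% of 320 tRNA genes and 5.43% of 92 snoRNA genes, below or near the 6.58% that members make up of all HFFc6 regions. Of the 587 transcribed pseudogenes under any HFFc6 region they met 73, or 12.4%, against 326 met by a region with CTCF in both lists; a longer gene can meet several regions and count for each class.

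Along the genome the share without CTCF differed between chromosomes. It was highest on chromosome 4, at 27.9% of 2855 shared regions, and on chromosome 13, at 27.8%, and lowest on chromosome 19, at 6.08% of 1859, and on chromosome 22, at 7.28%. Over the 23 chromosomes the median was 17.6%, and the share had a Spearman rho of −0.763 with protein-coding genes per Mb, given as a description because the chromosomes share the same libraries. The intervals of chromosomes 4 and 13 do not reach those of chromosomes 19 and 22.

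**Figure D5:**
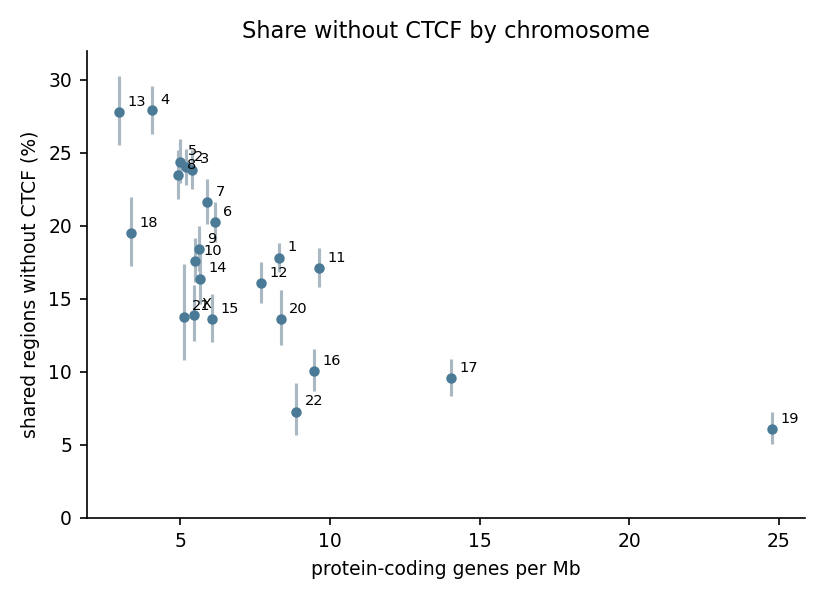
Share of regions open in both lines that hold no CTCF (percent, vertical axis) against protein-coding genes per Mb (horizontal axis), 1 point per chromosome with its 95% Wilson interval. Chromosomes 13 and 4, with few genes per Mb, stand at 27.8% and 27.9%, and chromosome 19, with the most, at 6.08%.

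Several genes gathered many members. Assigned to the nearest end of a protein-coding gene, they were most numerous at DAOA, where 26 of 33 shared regions were members and 1 held CTCF in both lists. At IMMP2L, which encodes a mitochondrial inner membrane peptidase, 24 of 34 were members, and at SLITRK1, a neuronal membrane protein, 23 of 32. ASB3 had 21 of 32. STIM2, a calcium sensor of the endoplasmic reticulum, had 17 of 32, the RNA-binding protein gene RBMS3 17 of 30, and SPAG16, a protein of the sperm tail, 17 of 26, all inside the gene. TENM3, DIAPH3 and TRAPPC9 had 15 each. These 10 genes had a median length of 614 kb, against 24.2 kb for all protein-coding genes, and a longer gene or a wider gap around it gathers more regions by this assignment. Neighbouring members lay a median of 120 kb apart, and 750 of 10228 gaps were under 10 kb. The densest 100-kb window, chr1:197252730-197352428 over CRB1, a retinal polarity gene, held 8 members among 16 HFFc6 regions, and chr4:152981372-153068002, with no annotated coding gene or lncRNA, held 7 among 8.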

How the data were processed

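The input was 4 deposited lists of called regions, namely ATAC lists of HFFc6 and H1, a CTCF list of HFFc6 and a CTCF list whose name says hESC but which no label ties to a library. The aligner BWA, the peak caller MACS2 and bedtools are listed, with the build hg38, per the submitters' processing notes, without versions, thresholds or order. Per the labels, each of the 3 lists with labelled libraries belongs to all libraries of its group, so replicates were pooled. The deposited fold enrichment is a linear ratio per region, and the authors' files also hold −log10 q values and a display score, which was not used. Read depth is unknown.

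Overlaps (at least 1 bp), distances and Wilson intervals (95%) were computed in Python 3.11.15 with numpy 2.4.6, pandas 2.3.3 and scipy 1.17.1, and the overlap code was tested on simulated data. Gene starts came from a RefSeq promoter table (GRCh38.p14) with 15812 of 19974 protein-coding and 11383 of 18177 lncRNA genes, none on chromosome 8, where 586 members lay; the gene lists therefore count only genes with a start there. CpG and motif values used its 300-base windows. Where several H1 regions met a member (449 members), the one of highest fold enrichment gave the H1 values. Regions were named by rule: the 10 highest in each line, the 5 widest, the 5 farthest from CTCF, the 10 genes with the most members, and up to 4 genes per list. Coding starts were ranked by the lower of their percentiles in both ATAC lists. The promoters shown are the highest of this ranking except that DLG3, which ranked above FGL2, was passed over. The members and lists were chosen with earlier results of these data known; 9 gene lists and 2 settings were added after seeing the data. No p-value was computed, because each list is 1 pooled call. The alternatives changed the overlap, the peak threshold, the region width, the CTCF lists, the side counted and the window at gene starts.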

Additional observations from a re-analysis of the deposited data

Results flagged for a closer look

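Regions outside chromosomes 1 to 22 and X entered no comparison. There were 534 such regions in the HFFc6 ATAC list, 275 in the H1 ATAC list, 207 in the HFFc6 CTCF list and 259 in the CTCF list named for hESC. These regions were set aside by the rule that chose the members, and no control list gives a level to compare them with.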

How the results depend on the processing

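The share of shared open regions without CTCF, 19.0%, was 18.5% when 50% of either region had to overlap, 15.2% with a −log10 q of at least 10 in all 4 lists, 20.3% with 500 bp around each summit, 17.0% with no CTCF region within 1000 bp, 30.2% with the HFFc6 CTCF list alone, 31.5% with the hESC-named list alone and 20.4% counted over H1 regions. In the same order, the share of members at a gene start, 6.36%, was 6.90%, 15.3%, 7.94%, 5.37%, 8.28%, 11.0% and 9.13%. It was 5.54% with a 500 bp window and 7.78% with a 2000 bp window. In settings chosen after seeing the data, it was 11.0% with either end of every gene and 9.95% for members with a −log10 q of at least 10 in both ATAC lists. The 2 settings with a single CTCF list leave out fewer regions by construction; for the others the cause was not tested. With the 500 bp window, 2.05% of protein-coding starts had a member, and 0% of the 60 chaperonin and heat shock starts. The median fold enrichment of members stayed within their quartiles in all its alternatives, and 22 of 24 gene list shares and 15 of 15 motif shares moved by no more than their intervals. Of 64 alternatives 44 stayed within these limits, but many of them had little room to move. A narrower window cannot add a member to the 20 lists without one, and the motif alternatives kept 374 of the same 408 starts. The quartiles are a wide limit, and the median fold enrichment was 6.29 with the hESC-named list alone. Every alternative of the share without CTCF and of the share at a gene start fell outside its interval.

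No paired analysis was possible because each list is 1 pooled call without values per replicate, and for the same reason no replicate was left out in turn. Read depth is unknown, so a region missing from a list is one that was not called at that depth, not one shown to be closed or free of CTCF. A called CTCF region is likewise a peak call, not one shown to be bound by CTCF.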
